A study of Mus musculus with 12 samples.

Results

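The Usher complex and ankle link genes examined here are *Myo7a*, *Ush1c*, *Ush1g*, *Adgrv1*, *Pdzd7*, *Clrn1* and *Clrn2*. They were chosen by name, 7 genes of the 55416 in the count files, and all 7 were found by their GENCODE gene name and had enough counts to be tested. The levels are those in 12 bulk RNA-seq libraries of mouse organ of Corti, 6 made from inner hair cells (IHCs) and 6 from outer hair cells (OHCs), all at postnatal day 0 (P0, the day of birth). The mice are labelled WT, but the sort relied on reporter alleles. IHCs were collected by Atoh1-GFP. OHCs had to carry the R26-TdTomato signal as well, which a Cre recombinase made from the *Insm1* locus (Insm1-GFP-Cre) switches on. The methods describe a single cross for the sorts, in which the Cre is a knock-in at *Insm1*, so OHCs carried that allele. For the study's chromatin accessibility pools, the methods state that each pup gave both cell types, so IHCs of those pups had the same genotype. Whether the RNA pools were collected in this way is not given in the sources used here. Each library was a pool of sorted cells from several newborns of both sexes and says nothing of the spread between single cells, and in such bulk samples fewer cells of a type and less RNA per cell cannot be told apart.

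Usher syndrome is inherited deafness with loss of vision, and the proteins of its genes build links between the stereocilia, the actin-filled projections that form the hair bundle of a hair cell. *Myo7a* encodes the motor protein myosin VIIa, *Ush1c* the PDZ scaffold harmonin and *Ush1g* the scaffold Sans, which together anchor the tip link at its upper end. *Adgrv1* encodes a very large adhesion G protein-coupled receptor that forms the ankle links near the base of developing stereocilia, and *Pdzd7* and *Whrn* encode the PDZ scaffolds that hold it. *Clrn1* and *Clrn2* encode clarins, small proteins with several membrane passes that hair bundles need for their upkeep.

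Of the 7 genes, *Adgrv1* was the only one called different between IHCs and OHCs, with edgeR's quasi-likelihood test and a threshold of 0.05 on its adjusted p, and it was higher in OHCs. *Pdzd7*, its partner in the ankle link complex, leaned the other way and missed the threshold. *Ush1c* also had a positive fold change, and *Myo7a*, *Ush1g*, *Clrn1* and *Clrn2* had negative ones, none of them past the threshold. Fold changes are OHC against IHC on the log2 scale, so that a negative value is a lower level in OHCs. In the whole table the same test called 6.26% of 13269 genes, 3.81% as IHC-enriched and 2.44% as OHC-enriched, and a list of 7 is too short to set 1 call apart from that background. The median log2 fold change of the 7 genes was -0.49, beside -0.04 over all genes tested.

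**Figure D1:**
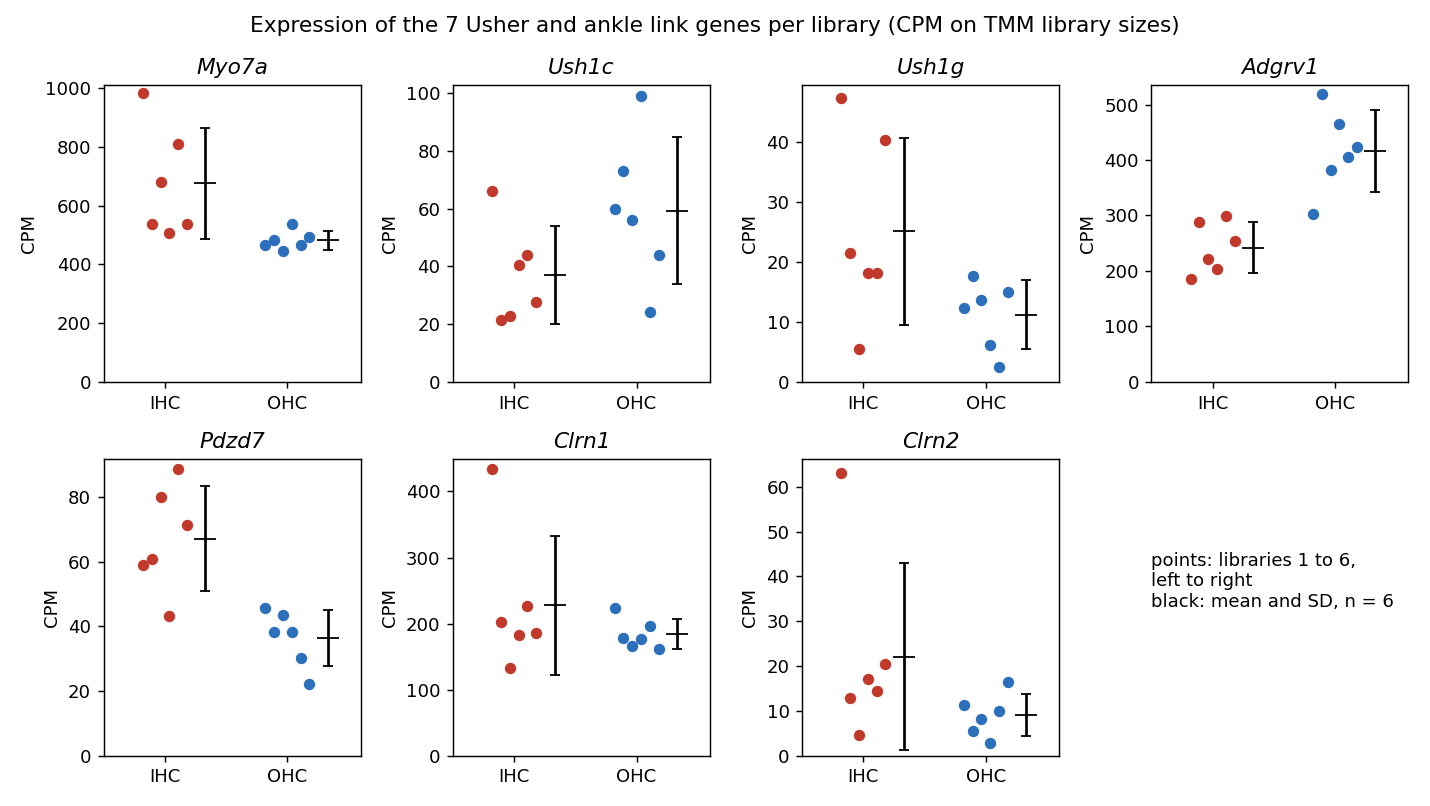
Each panel plots 1 gene, with the 6 IHC libraries in red and the 6 OHC libraries in blue, in the order of their replicate number, on a linear CPM axis from 0, and black marks for the mean and SD of 6 libraries. The OHC libraries of *Adgrv1* (302 to 519 CPM) all sit above its IHC libraries (185 to 299 CPM), whereas the groups of the other 6 genes overlap, and IHC replicate 1 is the highest IHC point for *Myo7a*, *Ush1c*, *Ush1g*, *Clrn1* and *Clrn2*.

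The libraries held 31490204 to 44017309 counts on genes in IHCs and 29564827 to 39121988 in OHCs. Expression is given as CPM, a gene's count relative to the library size after scaling by edgeR's TMM method, and as TPM, which also divides by exon length, where levels of different genes are compared. IHC replicate 1 stood apart, with 56.9% of its counts on ribosomal RNA against 21.45% to 37.05% in the other 11 libraries. In that library short genes were relatively high and long genes low: against the mean log2 CPM of the other 5 IHC libraries, the median log2 difference was 0.46 over 531 genes with under 1 kb of exons and -0.37 over 799 genes with at least 15 kb. The 8 hair cell markers, all tested, summed to 5385 to 8402 CPM in IHC and 3977 to 5177 CPM in OHC libraries, with *Gfi1*, *Otof*, *Espn* and *Pvalb* called IHC-enriched. *Otof* alone had means of 2260 and 479 CPM, so this sum does not measure the hair cell content of the pools. The fold change was negative for 7 of the 8, while *Myo6* was higher in OHCs, with means of 2277 and 3162 CPM, and was not called. The cell types carried their own markers, though *Insm1* drives the Cre used to sort OHCs, so its difference is not independent of the sort. The IHC markers *Tbx2*, *Fgf8* and *Slc17a8* summed to 331 to 586 CPM in IHC libraries and 5.57 to 52.8 CPM in OHC libraries, and the OHC markers *Insm1*, *Neurod6*, *Bcl11b* and *Ikzf2* to 2.16 to 23.5 CPM in IHC and 105 to 188 CPM in OHC libraries, although *Ikzf2* alone was low in both, with means of 8.89 and 6.75 CPM. Markers of other cells moved with the cell type too. A list of 9 supporting cell and greater epithelial ridge genes summed to 898 to 1721 CPM in IHC pools and 113 to 642 CPM in OHC pools. Of its 8 tested genes, 3 were called IHC-enriched (*Sox2*, *Gjb2* and *Tecta*), and *Tecta* alone had means of 772 and 220 CPM. The fold change was negative for 7 of the 8, while *Hes5* was higher in OHCs, with means of 8.08 and 20.2 CPM, and was not called. The 4 endothelial genes, all called OHC-enriched, summed to 0 to 3.15 CPM in IHC pools and 8.69 to 140 CPM in OHC pools. Of 3 neuronal genes, *Nefl* and *Nefm* were called IHC-enriched while *Prph* was nearly absent, and the list summed to 808 to 1494 and 216 to 432 CPM. The mesenchymal list had 0 of 4 tested genes called, with sums of 8.55 to 34.7 CPM in IHC and 2.06 to 14.2 CPM in OHC pools, the glial list 0 of 2, with 3.14 to 29.7 and 1.70 to 9.28 CPM, and none of the erythroid and macrophage genes was abundant enough to test, with sums of at most 0.518 and 1.83 CPM in any library. What part these cells had in the values below was not tested.

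*Adgrv1* (ENSMUSG00000069170) is a gene of the minus strand, at chr13:81243187-81781298 in GRCm39, and spans 538 kb, with 24999 bases of exon in 97 merged blocks. The 6 IHC libraries ran from 185 CPM over a median of 237 to 299 CPM, and the 6 OHC libraries from 302 over 415 to 519 CPM. No OHC library fell below the highest IHC library, although the lowest, OHC replicate 1 at 302.0 CPM, was close to IHC replicate 5 at 298.6 CPM. The means were 241.5 ± 45.9 CPM for IHCs and 416 ± 73.7 CPM for OHCs (SD, n = 6 each). OHCs were 1.72-fold higher, 0.78 on the log2 scale with a standard error (SE) of 0.19, and edgeR's quasi-likelihood test gave an adjusted p of 0.0172. A gap of this kind, with all 6 libraries of a cell type above all 6 of the other, was found in 4.60% of the genes tested, 2.37% with the IHC and 2.22% with the OHC libraries above. On TPM the groups of *Adgrv1* overlapped, with IHC replicate 6 at 38.2 and OHC replicate 5 at 35.7 TPM, and on TPM scaled without ribosomal RNA genes they did not, with 23.6 to 78.2 in IHCs and 94.9 to 146 in OHCs.

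The call for *Adgrv1* held with each library left out in turn, with adjusted p-values from 0.0154 to 0.0498, the highest without OHC replicate 2. It was lost, at an adjusted p of 0.05001 and a log2 fold change of 0.63, when an offset for exon length was fitted to each library. Among the 799 genes with at least 15 kb of exons, as *Adgrv1* has, 3.25% were called OHC-enriched and the median log2 fold change was 0.07, against 0.188% and -0.51 among 531 genes with under 1 kb. The shares called IHC-enriched were 3.88% and 1.13%, so the long genes were called more often than the short ones in both directions. A positive fold change was found for 55.2% of the long and 29.2% of the short genes. What part exon length had in the call for *Adgrv1* was not tested further. Without IHC replicate 1, the library with the lowest *Adgrv1* value, the difference was 0.71 on the log2 scale (quasi-likelihood adjusted p = 0.0204).

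*Pdzd7* (ENSMUSG00000074818) is at chr19:45015345-45035127, also on the minus strand, with 4369 exonic bases. Its IHC libraries ran from 43.1 over a median of 65.95 to 88.5 CPM and its OHC libraries from 22.1 over 38.2 to 45.6 CPM. IHC replicate 4, at 43.1 CPM, fell among the OHC libraries, and the other 5 from IHCs were higher than all of them. The means were 67.1 ± 16.3 CPM for IHCs and 36.3 ± 8.75 CPM for OHCs (SD, n = 6 each), or -0.89 on the log2 scale (SE 0.28). In edgeR's quasi-likelihood test this missed the threshold, with an adjusted p of 0.0657. On the same counts the adjusted p was 0.0496 in edgeR's exact test, which called 9.54% of its genes, and 0.00408 in DESeq2, which called 17.3%, and it was 0.0466 in the quasi-likelihood test without IHC replicate 4, so the side of the threshold on which *Pdzd7* falls depends on the test and on that library. *Pdzd7* shares 207 exonic bases with *Lzts2* and 33 with *Sfxn3* on the other strand, which is 4.74% and 0.755% of its exonic bases, and the strand setting of the counting is not given in the sources used here.

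**Figure D2:**
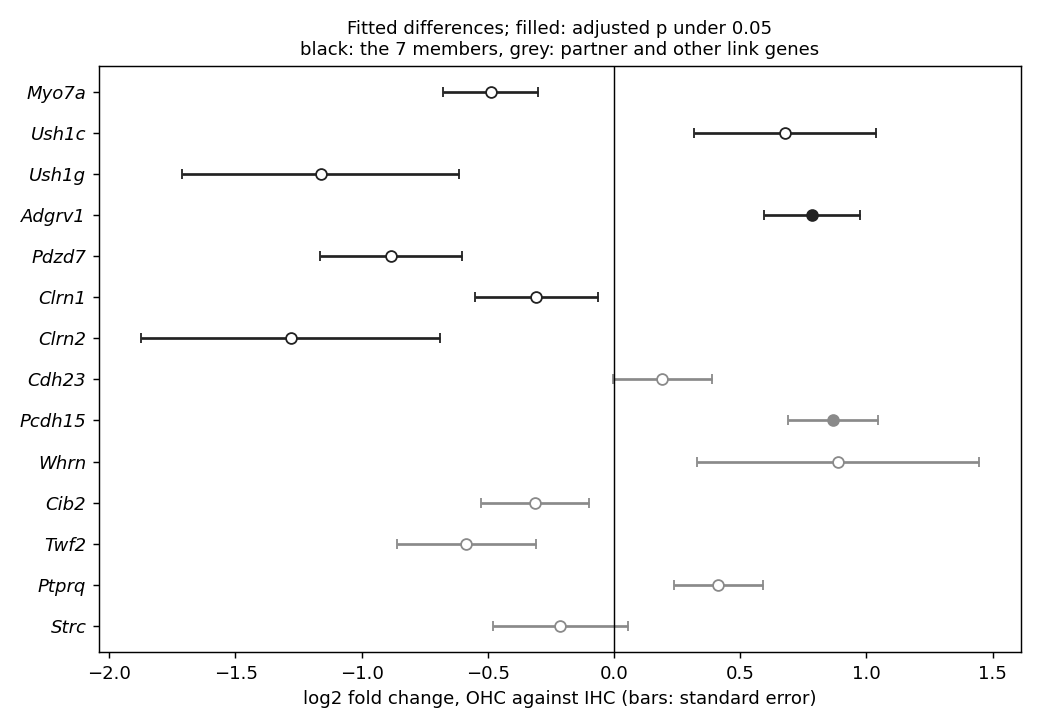
The horizontal axis is the fitted log2 fold change of OHCs against IHCs, with bars of 1 standard error, for the 7 genes in black and for partner and other link genes that could be tested in grey, and filled points have an adjusted p under 0.05. *Adgrv1* at 0.78 and *Pcdh15* at 0.87 are the filled points, and *Pdzd7* at -0.89 lies on the opposite side.

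Because both values of a ratio come from the same library, the ratio of *Adgrv1* to *Pdzd7* does not depend on how libraries are scaled. A dependence on exon length that differs between libraries is not removed, as *Adgrv1* has 24999 exonic bases, *Pdzd7* 4369 and *Myo7a* 10075. Its part in the ratios was not tested. Per exonic base, *Adgrv1* had 0.482 to 0.828 of the counts of *Pdzd7* in IHC libraries (median 0.606) and 1.16 to 3.35 of them in OHC libraries (median 2.24). *Pdzd7* was thus above *Adgrv1* in 6 of 6 IHC libraries and below it in 6 of 6 OHC libraries. This ratio was picked with the values of both genes known and is given without a test. Against *Myo7a*, the ratio of *Adgrv1* was 0.0757 to 0.215 in IHCs and 0.261 to 0.433 in OHCs, without overlap. Both ratios share *Adgrv1*, whose CPM groups did not overlap, so the second is not independent of the first. The ratios to *Myo7a* are also given without a test. The ratio of *Pdzd7* to *Myo7a* was 0.138 to 0.306 in IHCs and 0.103 to 0.225 in OHCs, with overlap.

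**Figure D3:**
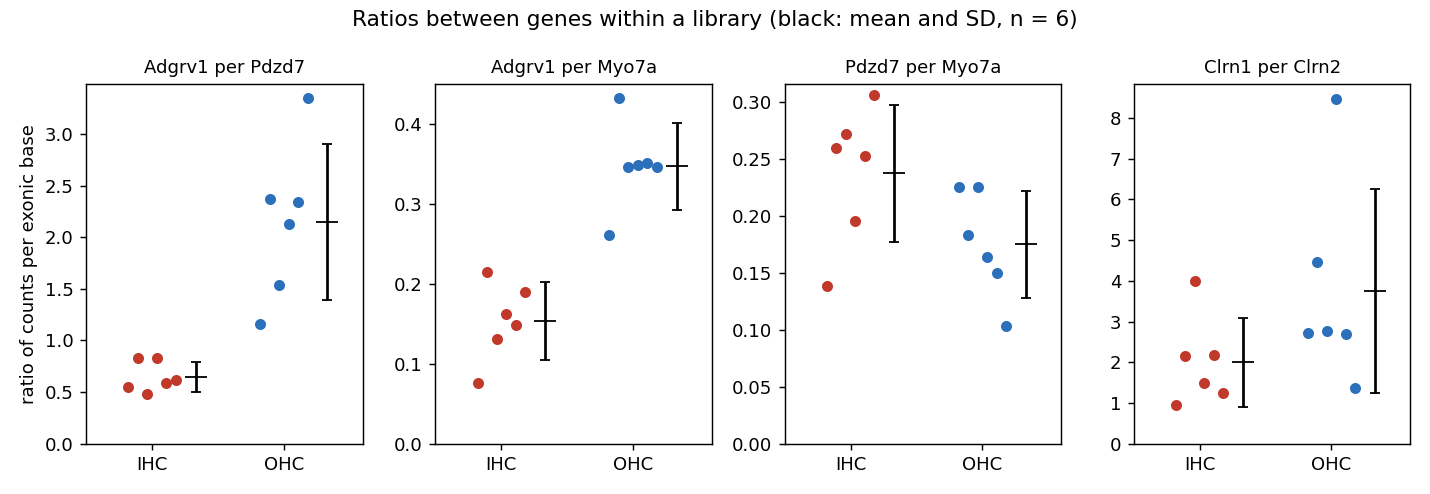
Each panel plots the ratio of counts per exonic base between a pair of genes in the 6 IHC (red) and 6 OHC (blue) libraries, on a linear axis from 0, with the mean and SD in black. The first 2 panels, with *Adgrv1* on top of the ratio, show no overlap of the cell types, and the other 2 do.

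The genes of the tip link anchor gave no call. *Myo7a* (ENSMUSG00000030761), at chr7:97699069-97768734 (minus strand), ran from 509 over a median of 610 to 984 CPM in IHC libraries and from 445 over 475 to 537 CPM in OHC libraries. The IHC libraries were widely spread and the OHC libraries narrowly, with coefficients of variation of 27.9% and 6.57%, and all OHC libraries lay below 4 of the 6 from IHCs. Means were 676 ± 189 CPM for IHCs and 482 ± 31.7 CPM for OHCs (SD, n = 6 each). On the log2 scale the difference was -0.49 (SE 0.19, quasi-likelihood adjusted p = 0.131), and without IHC replicate 1 it was -0.36. The counts are per gene, so transcripts of *Myo7a* that begin at different exons are added together and an isoform used by a single cell type cannot be seen in them.

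*Ush1c* (ENSMUSG00000030838), at chr7:45843621-45887987 (minus strand), had 21.4 CPM in the lowest, 34.2 in the median and 66.1 in the highest IHC library. In OHC libraries these values were 24.1, 57.97 and 98.9 CPM, so the cell types overlapped over most of their range. The log2 fold change was 0.68 (SE 0.36, quasi-likelihood adjusted p = 0.284), from 0.46 without OHC replicate 4 to 0.91 without IHC replicate 1. *Ush1g* (ENSMUSG00000045288), a compact gene at chr11:115206018-115212890 (minus strand), went from 5.55 over a median of 19.8 to 47.3 CPM in IHCs. Its OHC libraries went from 2.57 over 13.0 to 17.7 CPM, and 5 of 6 IHC libraries were above all of these, with IHC replicate 3 as the exception. The log2 fold change of -1.16 had an SE of 0.55 and a quasi-likelihood adjusted p of 0.223. The spread between libraries was large, with coefficients of variation of 62.05% in IHCs and 51.2% in OHCs. Harmonin also exists in several isoforms, which these gene counts do not separate.

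As CPM, both clarin genes were highest in IHC replicate 1, and without it their fold changes kept their sign and were smaller. *Clrn1* (ENSMUSG00000043850), at chr3:58734965-58792775 (minus strand), ran from 133 over a median of 194 to 434 CPM in IHC libraries and from 162 over 178 to 223 CPM in OHC libraries. Apart from IHC replicate 1, no library was over 227 CPM. The log2 fold change was -0.31 (SE 0.24, quasi-likelihood adjusted p = 0.496), and it was -0.03 without that library. *Clrn2* (ENSMUSG00000049530), at chr5:45611093-45621491 (plus strand), ran from 4.58 over 15.7 to 63.2 CPM in IHCs and from 2.88 over 9.14 to 16.5 CPM in OHCs. Its highest value was again IHC replicate 1, with the next IHC library at 20.4 CPM. The log2 fold change of -1.28 (SE 0.59, quasi-likelihood adjusted p = 0.213) was -0.62 without IHC replicate 1. *Clrn2* has 944 exonic bases and *Clrn1* 6848 in the union of its exons or 3171 in its canonical transcript, and the part of exon length in their values in IHC replicate 1 was not tested.

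**Figure D4:**
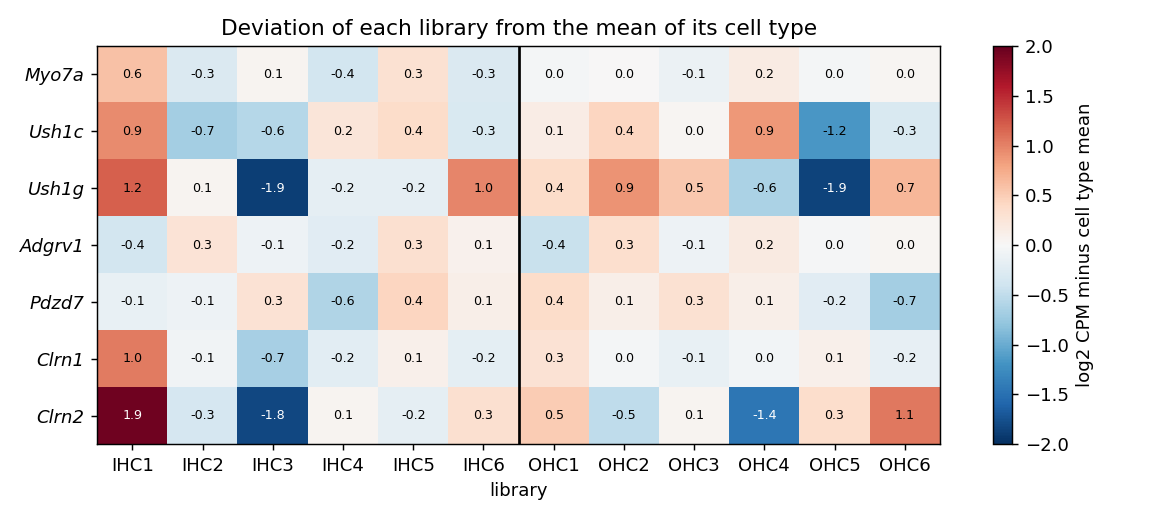
The grid gives, for each of the 7 genes and 12 libraries, log2 CPM minus the mean of the library's cell type, with red above and blue below that mean. IHC replicate 1 is red for *Myo7a*, *Ush1c*, *Ush1g*, *Clrn1* and *Clrn2* and pale blue for *Adgrv1* and *Pdzd7*, and *Ush1g* and *Clrn2* vary most.

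Among the IHC libraries, replicate 1 had the highest CPM for 5 of the 7 genes and the lowest for *Adgrv1*. Its rank depended on the scale. On TPM, where ribosomal RNA counts in the total, it was highest for none of the 5. It was lowest for *Myo7a* (85.6 TPM) and, barely, for *Clrn1* (55.5 TPM, with the next library at 55.8). On TPM scaled without ribosomal RNA genes it was highest for *Clrn2* alone, at 213.5 with the next library at 164.5, and still lowest for *Myo7a*, at 311.5. *Adgrv1* was lowest in that library on all 3 scales. *Pdzd7* was lowest there on both TPM scales, at 11.8 and 43.07, but not as CPM. IHC replicate 3 was the lowest for *Ush1g* (5.55 CPM), *Clrn1* (133 CPM) and *Clrn2* (4.58 CPM), so the low and the high end of these 3 genes came from the same pair of libraries. Among the OHC libraries, replicate 1 was the highest and replicate 6 the lowest for *Clrn1* (223 and 162 CPM) and *Pdzd7* (45.6 and 22.1 CPM), while *Ush1c* and *Ush1g* were lowest in replicate 5, at 24.1 and 2.57 CPM. *Myo7a* and *Clrn1* were the steadiest of the 7 genes in OHCs, with coefficients of variation of 6.57% and 12.4%. All genes of a library share its depth, quality and scaling, and their part in these values was not tested.

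Levels of different genes were compared as TPM, which takes the length of the exons into account. In both cell types *Myo7a* was the highest of the 7 genes, with 156 ± 50.4 TPM (SD, n = 6) in IHCs and 146 ± 25.5 TPM (SD, n = 6) in OHCs, above 98.2% and 97.8% of the genes tested. *Clrn1* followed with 72.4 ± 18.2 and 82.5 ± 21.2 TPM, so that its mean was higher in OHCs on this scale and lower in OHCs as CPM. For the other 6 genes the cell type with the higher mean was the same on both scales. Below these the order differed between the cell types. In IHCs came *Clrn2* (45.2 ± 23.5 TPM), *Pdzd7* (39.0 ± 19.0 TPM), *Adgrv1* (24.6 ± 10.5 TPM), *Ush1g* (17.6 ± 14.2 TPM) and *Ush1c* (12.6 ± 4.47 TPM). In OHCs *Adgrv1* was next, with 50.4 ± 9.76 TPM, ahead of *Clrn2* (29.1 ± 15.3 TPM), *Ush1c* (28.5 ± 13.5 TPM), *Pdzd7* (26.15 ± 10.1 TPM) and *Ush1g* (10.7 ± 5.72 TPM). *Adgrv1* had more reads than *Pdzd7* in every library, and fewer per exonic base in the IHC libraries.

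Several neighbours in this order did not differ beyond their spread. *Myo7a* was above *Clrn1* in 6 of 6 libraries of each cell type, and *Pdzd7* above *Adgrv1* in 6 of 6 IHC libraries. In IHCs *Clrn2* was above *Pdzd7*, and *Ush1g* above *Ush1c*, in only 3 of 6 libraries. In OHCs *Clrn2* was above *Ush1c* in 4 and *Ush1c* above *Pdzd7* in 3 of 6, so the middle of the order is not settled there. With the length of the canonical transcript in place of the union of exons, *Clrn1* had 128 TPM in IHCs and 141 TPM in OHCs. On that length *Myo7a* was above *Clrn1* in only 4 of 6 IHC libraries, and *Clrn1* was above *Myo7a* in 4 of 6 OHC libraries. *Ush1c* was then ahead of *Ush1g* in IHCs. *Pdzd7* stayed above *Adgrv1* in 6 of 6 IHC libraries on that length too.

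**Figure D5:**
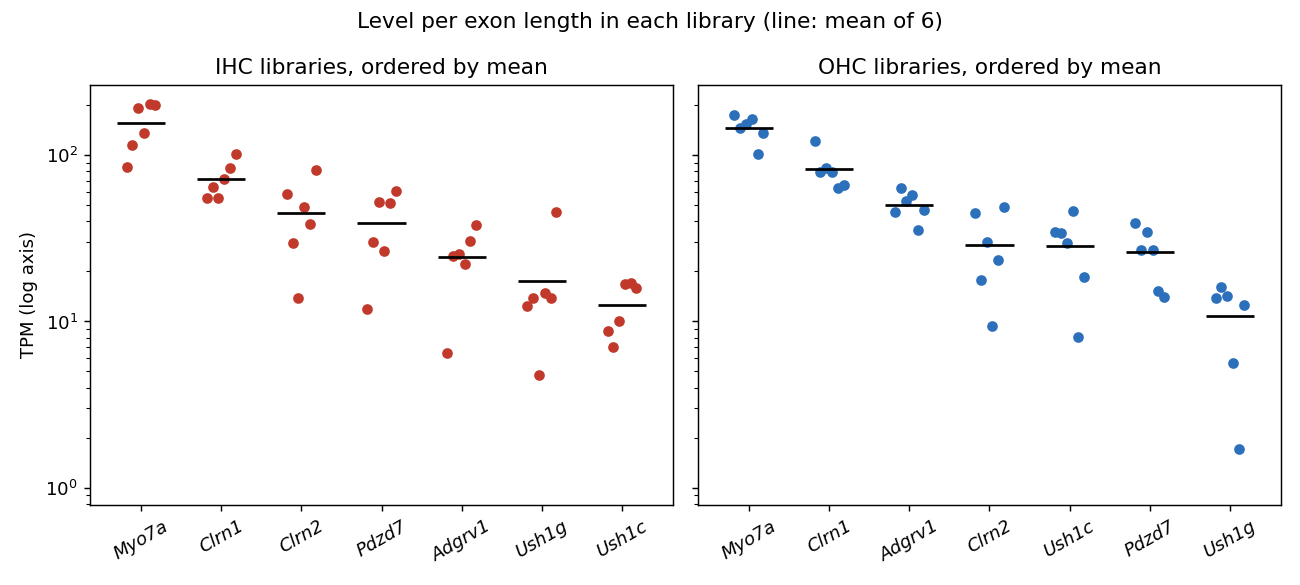
TPM of the 7 genes in each library, on a log axis, for the IHC libraries on the left and the OHC libraries on the right, with genes ordered by their mean (black line). *Myo7a* and *Clrn1* lead in both panels, and *Adgrv1* stands below *Clrn2* and *Pdzd7* in IHCs and above both in OHCs.

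The partners of the 7 genes were looked at in the Usher genes *Cdh23*, *Pcdh15*, *Whrn* and *Cib2* and in *Myrip*, *Rab27a* and *Twf2*, which encode proteins tied to myosin VIIa as cargo adaptors or actin regulators. Of these 4 Usher genes, all tested, 1 was called OHC-enriched and 0 IHC-enriched, beside 2.44% and 3.81% of all genes tested. A list of 4 is too short to set 1 call apart from that background. Their median log2 fold change was 0.53, with 3 positive values and 1 negative. The call was *Pcdh15*, which encodes the lower strand of the tip link. It ran from 217 over a median of 272 to 329 CPM in IHC libraries and from 384 over 513 to 566 CPM in OHC libraries. The groups did not overlap, which held with the OHC libraries above for 2.22% of all genes tested. Its log2 fold change was 0.87 (SE 0.18, quasi-likelihood adjusted p = 0.00541). Its call also held with the offset for exon length, at an adjusted p of 0.0182. *Cdh23*, which encodes the upper strand, had means of 392.2 and 448 CPM in IHCs and OHCs and a fold change of 0.19 on the log2 scale (SE 0.20, quasi-likelihood adjusted p = 0.608), which was not called. Whether the fold changes of the strands differ from each other was not tested.

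*Whrn*, the other scaffold of the ankle link, was low and uneven, with 2.88 to 18.4 CPM in IHCs and 6.31 to 36.4 CPM in OHCs. Its log2 fold change of 0.89 (SE 0.56, quasi-likelihood adjusted p = 0.374) had the opposite sign to that of *Pdzd7*. *Cib2*, a calcium-binding partner of the transduction channel, had a log2 fold change of -0.31 (adjusted p = 0.420) and *Twf2* one of -0.58 (adjusted p = 0.220), neither of them past the threshold. Without IHC replicate 1 *Twf2* had -0.32. *Myrip* had 0 counts in all OHC libraries and at most 67 in an IHC library, and *Rab27a* at most 11 counts in any library, so neither was tested.

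A related complex with its own genes joins the microvilli of the intestinal brush border, and *Ush1c* is the member that both complexes share. The others were at or near the limit of detection. *Cdhr5* and the clarin relative *Clrn3* had 0 counts in all 12 libraries, which with a limit of 3 counts allows up to 0.196 CPM in IHC replicate 1 and 0.0647 to 0.100 CPM in the other libraries. *Myo7b*, *Anks4b* and *Cdhr2* had counts in 2, 5 and 3 libraries, with highest counts of 16, 32 and 44, and none of the 5 genes was abundant enough to test. Other links of the hair bundle were well expressed. *Ptprq*, whose protein lies in the shaft connectors, had 1309 ± 277 CPM for IHCs and 1744 ± 178 CPM for OHCs (SD, n = 6 each), with a log2 fold change of 0.41 (SE 0.18, quasi-likelihood adjusted p = 0.173). *Strc*, which encodes stereocilin of the top connectors, had 165 ± 79.9 and 142 ± 20.6 CPM and a log2 fold change of -0.21 (adjusted p = 0.688), which was 0.032 without IHC replicate 1.

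The genes most like each of the 7 were taken as those with the highest Pearson r of log2 CPM over the 12 libraries, which share depth and scaling between genes and fall into the 2 cell types. For *Adgrv1* these were *Zfp81* (r = 0.939), *Actr5* (r = 0.933) and the lncRNA *Gm12153* (r = 0.921), with IHC means of 30.9, 1.12 and 0.00814 CPM and OHC means of 72.9, 7.49 and 4.76 CPM. For *Pdzd7* they were *Phf21a* (r = 0.937) and *Spock2* (r = 0.925), both higher on average in IHCs. *Myo7a* was most like *Entrep3*, *Agap1* and *Kmt2d*, with r of 0.932, 0.930 and 0.926, *Ush1g* like *Gar1* (r = 0.930), and *Ush1c* like a gene without a symbol (r = 0.902). *Clrn1* had *Bbs2* (r = 0.951), *Ift57* (r = 0.951) and *Ptprf* (r = 0.936) nearest to it, and *Clrn2* had *Ube2j2* (r = 0.941) and *Sh2d3c* (r = 0.9004). Without IHC replicate 1, r was 0.833, 0.896 and 0.814 for *Bbs2*, *Ift57* and *Ptprf*, 0.855, 0.8996 and 0.843 for *Entrep3*, *Agap1* and *Kmt2d*, 0.822 for *Sh2d3c* and 0.899 for the gene without a symbol, all under 0.9. The other genes named here had 0.912 to 0.965.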

How the data were processed

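RNA from sorted IHC and OHC pools was depleted of ribosomal RNA, amplified with random primers and sequenced as paired reads. Libraries were made at 2 sites, and which site made which library is not given in the sources used here. The values deposited by the authors are whole-number counts per gene with no normalization. By their notes and methods, reads were trimmed with Trimmomatic, aligned with STAR in a pair of passes to GRCm39 and counted with HTSeq (intersection-nonempty mode, GENCODE vM27). Tool versions and the strand setting are not given in the sources used here. Intervals from counts would cover counting error only, since reads carry no molecular identifiers.

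Genes were filtered with edgeR's filterByExpr (minimum count 10, total 15), scaled by TMM, and IHCs compared with OHCs by edgeR 4.0.16 (estimateDisp, glmQLFit, glmQLFTest) in R 4.3.3, with Benjamini-Hochberg adjustment over 13269 genes and a threshold of 0.05. Standard errors are the log2 fold change over the root of the F statistic. CPM has no pseudocount, and log2 CPM for correlations and deviations used a prior count of 2. TPM used the union of exons in GENCODE vM39, which matched 98.8% of gene identifiers, and positions are from vM39. The script was tested on simulated data. Groups follow the sample titles. Alternatives were DESeq2 1.42.0, edgeR's exact test, other scalings and filters, a replicate block, each library left out, and, added after seeing the data, an offset for exon length and canonical transcript lengths. The named genes were the 7 genes, lists of partners (1 of them not reported here), 5 brush border genes and 2 other link genes, marker lists, and for each of the 7 the 3 genes most like it (for those not called, only where r was over 0.9). The 7 genes and the lists were chosen with earlier results of these data known.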

Additional observations from a re-analysis of the deposited data

Results flagged for a closer look

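Of 36 groups of 6 libraries examined (1 gene in 1 cell type), 9 held a library whose gap to the next was large against the range of the group. Chance gives about 1 in 20 for well measured values. That rate does not apply to 6 of the 9, from genes with at most 67 counts in any library, where 1 library sets the gap. IHC replicate 1 was such a library for *Clrn1*, at 434 CPM with the next at 227, for *Clrn2*, at 63.2 CPM with the next at 20.4, and for *Twf2*, at 225 CPM with the next at 120. On TPM the same library was barely the lowest of the IHC libraries for *Clrn1*, at 55.5 with the next at 55.8. It was second to IHC replicate 6 for *Clrn2*, at 58.6 against 81.3, and the second lowest for *Twf2*, at 70.4. The highest raw count in an IHC library was 8297 for *Clrn1*, 966 for *Clrn2* and 4317 for *Twf2*. IHC replicate 1 also stood out for *Rab27a*, at 0.719 CPM, from at most 11 counts. The other 5 were *Myrip* at 1.75 CPM in IHC replicate 3, *Cdhr2* at 1.11 CPM in IHC replicate 4, *Myo7b* at 0.2997 CPM in IHC replicate 6 and 0.345 CPM in OHC replicate 1, and *Rab27a* at 0.152 CPM in OHC replicate 2. IHC replicate 1 had the highest share of ribosomal RNA, and the part of this in its high values was not tested.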

How the results depend on the processing

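Across 20 alternatives each, *Adgrv1* kept its sign in all, with log2 fold changes of 0.63 to 0.85, and stayed past the threshold in 19. With the offset for exon length, 0 of the 7 genes were OHC-enriched and *Adgrv1* had 0.63 (adjusted p = 0.05001). *Pdzd7* became the 1 IHC-enriched gene in edgeR's exact test (-0.89, adjusted p = 0.0496) and DESeq2 (-0.89, adjusted p = 0.00408). With single libraries left out, 0 to 1 genes were IHC-enriched and *Pdzd7* ran from -0.99 to -0.78, passing only without IHC replicate 4. *Myo7a*, *Ush1c*, *Ush1g*, *Clrn1* and *Clrn2* kept sign and side in all 20 fits to counts, with lowest adjusted p-values of 0.0864, 0.135, 0.121, 0.323 and 0.102. *Strc*, at -0.21, ran from -0.35 to 0.032 with single libraries left out, and reversed only without IHC replicate 1 (0.032, adjusted p = 0.960). Over the whole table DESeq2 called 1339 IHC-enriched and 1590 OHC-enriched of 16911 genes (17.3%), edgeR's exact test 749 and 517 of 13269 (9.54%), the quasi-likelihood test without a filter 893 and 918 of 27488 (6.59%), and with it 506 and 324 of 13269 (6.26%).

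TPM scaled without ribosomal RNA was higher by construction. In IHCs and OHCs it was 405 and 343 for *Myo7a*, 33.1 and 65.5 for *Ush1c*, 44.4 and 24.8 for *Ush1g*, 62.5 and 119 for *Adgrv1*, 98.4 and 60.5 for *Pdzd7*, 191 and 193 for *Clrn1*, and 122 and 69.4 for *Clrn2*. With canonical lengths *Clrn1* had 128 and 141 TPM.

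Same-numbered IHC and OHC libraries did not deviate together (r of -0.03 to 0.02), so the numbers were not taken as pairs. With the replicate block, *Adgrv1* had 0.79 (adjusted p = 0.0230), *Pdzd7* -0.89 (adjusted p = 0.116) and 1 of the 7 genes was called, as without it, and of the 12 libraries only 1 correlated best with its own number.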
